A study of Mus musculus with 18 samples.

Results

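Smim3, Spns2, Mrnip, Sult1a1, Map3k6, 0610040J01Rik, Serpinb1a, Cd44, Prrx1 and Trim59 are 10 genes of the mouse cerebellum whose signal stood higher or lower after paraquat and that are not usually named among stress-response genes. They were picked by symbol for their difference after paraquat in these same arrays, so those differences are given as a description, with no p-value. The choice had no numeric threshold that could be restated here. The 10 genes were measured by 15 probe sets, and they stand among 12393 genes with a symbol of their own on the array, of which 8320 passed a filter on low values and were tested. Where a gene had several probe sets, the one with the highest mean stood for it. All values are log2 signals as deposited, and levels are compared between groups for one probe set, never between genes.

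The study asked how paraquat and apolipoprotein D (ApoD), a secreted lipid-binding protein of the lipocalin family, shape early gene expression in the cerebellum. Paraquat is a herbicide that cycles electrons to oxygen inside cells and so makes superoxide. Adult male mice, aged 80 ± 5 days, of 3 genotypes were used, and 9 mice of each genotype and treatment received 1 intraperitoneal injection. Treated mice were given 30 mg/kg of paraquat dissolved in 200 µl of saline, control mice a like volume of saline, and the cerebellum was frozen 6 h later. The genotypes were ApoD knock-out mice (KO), mice labelled as a human-ApoD transgenic gain of function mutant and described as over-expressing ApoD in neurons (TG), and wild-type mice (WT). The promoter of the transgene is not stated in the labels. RNA of 3 mice was pooled in equal amounts for each array, which gave 3 arrays of separate mice in each of the 6 groups, 18 in all. The titles name paraquat where it was given, and arrays whose titles do not were taken as saline from the protocol.

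Mouse Apod checked the labels. It was lower in KO than in WT by a log2 of -3.60 averaged over the treatments (SE 0.10, limma adjusted p = 7e-16). The KO arrays read 9.63, 9.83 and 9.16 after paraquat, against 8.4, 8.22 and 8.5 after saline, and the 6 WT arrays 12.38 to 12.76, so the KO arrays lay below all WT arrays under both treatments but less far below after paraquat. It was not raised in TG, at -0.29 against WT (SE 0.10, limma adjusted p = 0.026), and whether the mouse probes read the human transgene is not stated. The second KO paraquat array stood apart, with a median of 6.98 against 7.10 to 7.15 on the other 17 arrays and a mean correlation with the other arrays of 0.971 against 0.986 to 0.993. The TG arrays varied more than others in the control probe sets. The 18S rRNA control read 7.55 to 7.98 on the second and the third TG arrays of both treatments and 8.37 and 8.78 on the first TG paraquat and saline arrays, against 8.32 to 9.32 on the 12 KO and WT arrays. The spiked-in dap control read 12.62 and 12.27 on the first TG paraquat and saline arrays against 10.61 to 11.34 elsewhere. The 3′ minus 5′ difference of pyruvate carboxylase was 1.95 and 1.82 on the third TG paraquat and saline arrays, against 2.25 to 3.16 on all other arrays. The part of these features in the results was not tested.

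As background, the 10 genes belong to different machineries. Spns2 exports the lipid mediator sphingosine-1-phosphate from cells, chiefly from endothelium, and so feeds the receptors that steer lymphocytes and vessel tone. Sult1a1 is a cytosolic sulfotransferase that moves sulfate onto phenols and catechols, which makes them more soluble. Map3k6, also called Ask2, is a MAP kinase kinase kinase that pairs with Ask1 (Map3k5), a kinase held in check by reduced thioredoxin. Mrnip was described in human cells as a binding partner of the MRN complex, which senses broken DNA. Smim3 is a small membrane protein first cloned as a transcript induced by nerve growth factor in a rat cell line. Sult1a1 and Map3k6 have also been listed among genes that glucocorticoids induce in rodent brain, so that for these 2 the description as outside the usual stress pathways is loose. Among the 5 genes that stood lower, Cd44 is the main cell-surface receptor for hyaluronan, and Serpinb1a inhibits elastase-like serine proteases of neutrophils. Prrx1 is a homeobox transcription factor of mesenchyme, Trim59 is a RING-type ubiquitin ligase of the TRIM family, and 0610040J01Rik is annotated as a protein-coding gene without a named function.

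After paraquat, Smim3, Spns2, Mrnip, Sult1a1 and Map3k6 stood higher and the other 5 genes lower in both KO and WT, and for all 10 genes the 3 paraquat arrays did not overlap the 3 saline arrays in either genotype. In TG the arrays overlapped for all 10 genes. Among all 8320 genes the paraquat and saline arrays did not overlap for 22.7% in KO, 3.69% in TG and 28.4% in WT. By limma at a Benjamini-Hochberg adjusted p under 0.05, 8 of the 10 were called in KO (3 higher, 5 lower), 0 in TG and 7 in WT (5 higher, 2 lower). Among all 8320 genes the called share was 2.26% in KO (0.793% higher, 1.47% lower), 0% in TG and 2% in WT (1.53% higher, 0.469% lower), and at an unadjusted p under 0.05 limma gave 1484, 118 and 829 genes, with 10, 2 and 10 of the members among them. The members were picked from these contrasts, so nothing is read from their counts. The median size of the log2 difference over the 10 genes was 1.16 in KO, 0.20 in TG and 0.81 in WT, beside 0.14, 0.07 and 0.09 over all genes tested. All 10 passed the filter, which asked for a value at or above the 40th percentile of an array on at least 3 arrays. Map3k6 reached it on 5 of 18 arrays, and KO paraquat was the only group with 3 of them. Prrx1 reached it on 6 arrays, all from KO or WT saline, so that for both genes a difference was built into their passing.

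**Figure D1:**
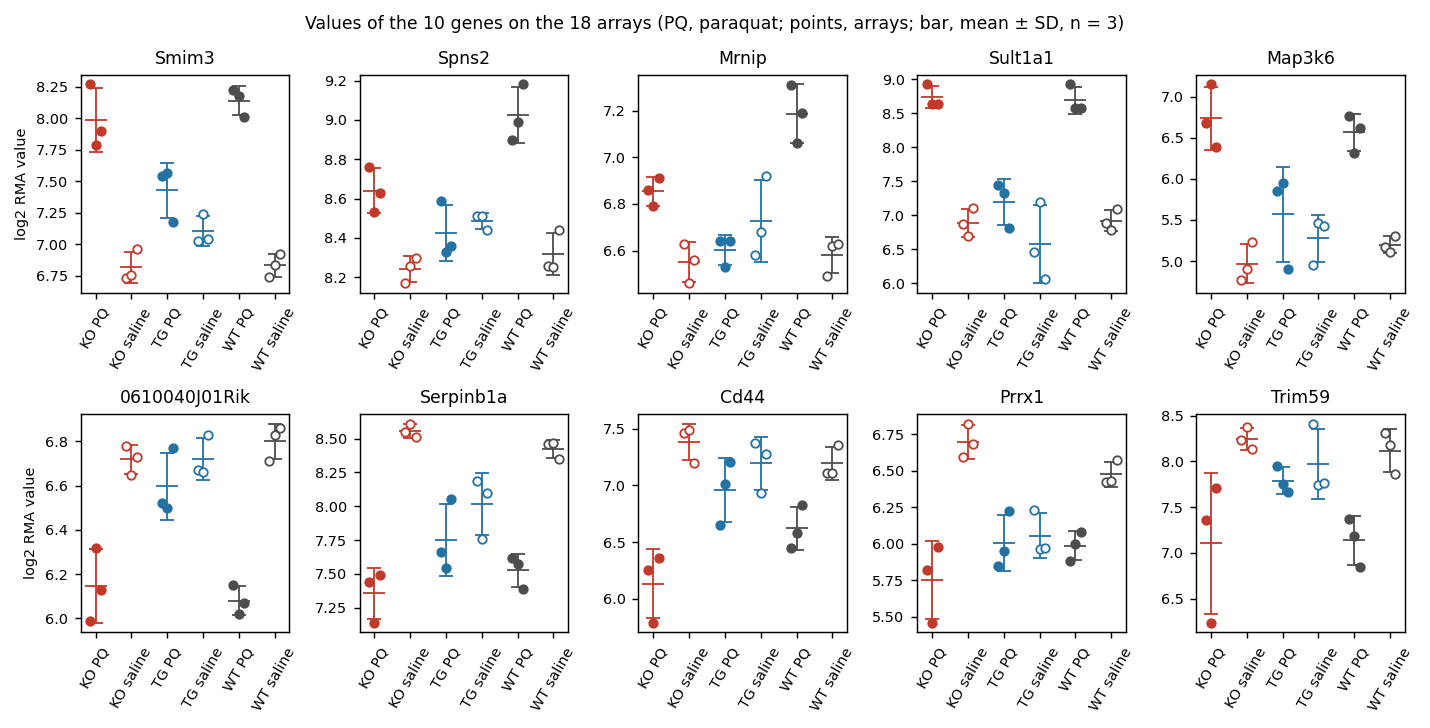
Log2 RMA value (vertical axis, own scale for each gene) of the 10 genes on all 18 arrays, by genotype and treatment (PQ, paraquat); filled points are paraquat arrays, open points saline arrays, and bars the mean ± SD of 3 arrays. In KO and WT the paraquat arrays of every gene lie clear of the saline arrays, whereas in TG they overlap.

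Sult1a1 had the largest paraquat differences of the 10 genes in KO and WT. In KO it read 8.92, 8.64 and 8.64 after paraquat, against 6.87, 6.70 and 7.11 after saline. In TG it read 7.44, 7.33 and 6.81 after paraquat, against 6.46, 7.20 and 6.07 after saline. In WT the values were 8.92, 8.58 and 8.57 after paraquat, against 6.89, 6.78 and 7.09 after saline. The KO and WT paraquat arrays thus held nearly the same range, and every TG paraquat array lay below all 6 of them. The paraquat difference was 1.84 in KO, 0.62 in TG and 1.77 in WT (SE 0.21 each), which is 3.58-fold, 1.53-fold and 3.41-fold. The TG value ran from 0.36 without the third TG saline array to 0.93 without the second, so it rests on arrays that themselves spread widely (SD 0.57 under saline).

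Map3k6 behaved much like Sult1a1 in KO and WT. After paraquat it read 6.68, 7.15 and 6.39 in KO, against 4.77, 4.90 and 5.23 after saline. The TG arrays gave 5.85, 5.95 and 4.90 after paraquat, against 4.95, 5.46 and 5.43 after saline. The WT arrays gave 6.76, 6.32 and 6.62 after paraquat, against 5.17, 5.11 and 5.31 after saline. The third TG paraquat array was lower than all 3 TG saline arrays, while the first and the second were higher than all 3. The differences were 1.77 in KO, 0.28 in TG and 1.37 in WT (SE 0.23 each), and the KO value was 1.57 without the second KO paraquat array. In TG the difference ran from 0.09 without the second paraquat array to 0.62 without the third.

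The promoter windows of Sult1a1 and Map3k6 are shown because these 2 genes had the largest paraquat differences upward in KO and WT and because each holds a searched glucocorticoid receptor motif. Windows are RefSeq sequences of build GRCm38.p6, 250 bases before to 50 after a start site, and 8 of the 10 genes have one in the table used here. Both strands were searched. The core ACANNNTGT was found in 1 of the 8 windows, that of Map3k6, and in 6.85% of all 32851 windows. The shorter AGAACA was found in 1 of 8, that of Sult1a1, which holds it in either orientation, and in 19% of all windows. Capitals mark these matches. The Sult1a1 window is chr7:126676369-126676668 on the minus strand, with matches starting at base -212 and base -34 from the start site. The Map3k6 window is chr4:133240568-133240867 on the plus strand, with its match at base -179. Both start sites lie inside the annotated gene, by 14025 bases for Sult1a1 and 2839 bases for Map3k6, so other start sites of these genes are not covered. A match describes letters and does not show that a factor binds.
Sult1a1 promoter window: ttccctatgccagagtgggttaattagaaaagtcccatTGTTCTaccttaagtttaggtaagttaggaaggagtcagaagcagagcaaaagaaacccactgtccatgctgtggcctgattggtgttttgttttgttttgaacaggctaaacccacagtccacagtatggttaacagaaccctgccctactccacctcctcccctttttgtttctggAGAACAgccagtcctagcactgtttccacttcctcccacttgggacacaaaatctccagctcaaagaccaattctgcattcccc
Map3k6 promoter window: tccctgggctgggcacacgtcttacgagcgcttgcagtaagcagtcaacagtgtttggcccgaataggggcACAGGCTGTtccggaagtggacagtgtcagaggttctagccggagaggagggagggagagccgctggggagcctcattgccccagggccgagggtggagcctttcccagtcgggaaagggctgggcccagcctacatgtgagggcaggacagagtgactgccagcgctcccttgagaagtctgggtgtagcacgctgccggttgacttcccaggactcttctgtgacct

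Smim3 stood higher after paraquat on every array of KO and WT. It read 8.27, 7.79 and 7.90 in KO after paraquat, against 6.73, 6.76 and 6.96 after saline. It read 7.54, 7.57 and 7.18 in TG after paraquat, against 7.03, 7.24 and 7.04 after saline. In WT it read 8.23, 8.18 and 8.01 after paraquat, against 6.74, 6.84 and 6.92 after saline. The TG arrays lay between the extremes, with every paraquat value below those of KO and WT and every saline value above them. The differences were 1.17 in KO, 0.32 in TG and 1.31 in WT (SE 0.13 each), or 2.25-fold, 1.25-fold and 2.48-fold.

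Spns2 and Mrnip had a graded pattern, with the largest difference in WT, a smaller one in KO and none in the WT direction in TG. Spns2 read 8.76, 8.53 and 8.63 in KO after paraquat, against 8.17, 8.26 and 8.30 after saline. It read 8.59, 8.33 and 8.36 in TG after paraquat, against 8.51, 8.51 and 8.44 after saline. It read 8.90, 8.99 and 9.18 in WT after paraquat, against 8.26, 8.25 and 8.44 after saline. All 3 WT paraquat arrays thus exceeded every other array of the series. The differences were 0.40 in KO, -0.06 in TG and 0.71 in WT (SE 0.11 each).

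Mrnip followed the same order. Its values in KO were 6.86, 6.79 and 6.91 after paraquat, against 6.63, 6.46 and 6.56 after saline. Its values in TG were 6.64, 6.53 and 6.64 after paraquat, against 6.58, 6.68 and 6.92 after saline. Its values in WT were 7.31, 7.06 and 7.19 after paraquat, against 6.49, 6.62 and 6.63 after saline. The WT paraquat arrays were again the 3 highest of all 18, and the third TG saline array was the highest saline array. The differences were 0.30 in KO, -0.12 in TG and 0.61 in WT (SE 0.10 each). The KO difference was 49.6% of the WT difference for Mrnip and 56.5% for Spns2, beside 89.1% for Smim3, 104% for Sult1a1 and 130% for Map3k6.

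Serpinb1a stood lower after paraquat in KO and WT and began from a lower level in TG. In KO it read 7.44, 7.14 and 7.49 after paraquat, against 8.55, 8.61 and 8.51 after saline. In TG it read 7.66, 7.54 and 8.05 after paraquat, against 8.19, 7.76 and 8.10 after saline. In WT it read 7.62, 7.57 and 7.39 after paraquat, against 8.46, 8.47 and 8.35 after saline. All 3 TG saline arrays were below all WT saline arrays, at a difference of -0.41 (SE 0.14). The paraquat differences were -1.2 in KO, -0.27 in TG and -0.90 in WT (SE 0.14 each), which is 2.30-fold, 1.2-fold and 1.86-fold lower.

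Prrx1 shared the lower TG saline level on the probe set used for it. The KO arrays read 5.82, 5.46 and 5.98 after paraquat, against 6.59, 6.82 and 6.68 after saline. The TG arrays read 5.85, 5.95 and 6.22 after paraquat, against 6.23, 5.96 and 5.97 after saline. The WT arrays read 5.88, 6.0 and 6.08 after paraquat, against 6.42, 6.43 and 6.57 after saline. TG saline lay by -0.42 (SE 0.13) from WT saline and averaged 6.05 ± 0.16, near the WT paraquat mean of 5.99 ± 0.10 (SD, n = 3 each). The gene had passed the filter through KO and WT saline arrays alone. On its 3 other, dimmer probe sets TG saline averaged 5.01, 4.84 and 4.19, against 5.02, 5.17 and 4.03 in WT saline. The paraquat differences were -0.95 in KO, -0.04 in TG and -0.49 in WT (SE 0.13 each), and the KO value was -0.80 without the second KO paraquat array.

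Cd44 stood lowest in KO after paraquat. It read 6.25, 5.79 and 6.36 there, against 7.46, 7.49 and 7.20 in KO after saline. TG values were 6.65, 7.01 and 7.21 after paraquat, against 7.37, 6.93 and 7.28 after saline. WT values were 6.45, 6.58 and 6.83 after paraquat, against 7.11, 7.11 and 7.36 after saline. The 3 KO paraquat arrays were below all 3 WT paraquat arrays, at a difference of -0.48 (SE 0.17), or -0.31 (SE 0.16) without the second KO paraquat array, whereas KO and WT overlapped under saline. The paraquat differences were -1.24 in KO, -0.23 in TG and -0.57 in WT (SE 0.17 each). The KO difference was 217% of the WT difference for Cd44 and 193% for Prrx1, or 188% and 163% without the second KO paraquat array. For Prrx1 part of this lay in the saline arrays, where KO was above all WT arrays, by 0.22 (SE 0.13). After paraquat KO and WT overlapped for Prrx1, at -0.23 (SE 0.13), or -0.09 (SE 0.12) without the second KO paraquat array. The difference in paraquat response between the genotypes was not tested.

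Trim59 and 0610040J01Rik kept their saline level in TG after paraquat more closely than in KO or WT. Trim59 read 7.36, 6.24 and 7.71 in KO after paraquat, against 8.23, 8.37 and 8.13 after saline. It read 7.95, 7.75 and 7.66 in TG after paraquat, against 8.41, 7.74 and 7.76 after saline. It read 7.37, 7.19 and 6.85 in WT after paraquat, against 8.31, 8.18 and 7.86 after saline. The second KO paraquat array held the lowest Trim59 value of the series. With it the paraquat difference in KO was -1.14 (SE 0.26), and without it -0.71 (SE 0.19), beside -0.18 in TG and -0.98 in WT (SE 0.26 each).

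0610040J01Rik also stood lower after paraquat in KO and WT. In KO it read 5.99, 6.32 and 6.13 after paraquat, against 6.78, 6.65 and 6.73 after saline. In TG it read 6.52, 6.50 and 6.77 after paraquat, against 6.67, 6.66 and 6.83 after saline. In WT it read 6.15, 6.02 and 6.07 after paraquat, against 6.71, 6.83 and 6.86 after saline. The 3 saline groups overlapped one another, and the TG paraquat arrays lay above all 6 paraquat arrays of KO and WT. The differences were -0.57 in KO, -0.12 in TG and -0.72 in WT (SE 0.11 each).

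The windows of 0610040J01Rik and Trim59 are shown because both hold the antioxidant response element core TGACNNNGC, the motif read by the factor NRF2, although both genes stood lower after paraquat. It was found in 2 of the 8 windows and in 12.4% of all windows. The E-box CACGTG was found in the 0610040J01Rik window and in 7.15% of all windows, and there it shares the letters TG with the antioxidant match. The 0610040J01Rik window is chr5:63812245-63812544 on the plus strand, with the E-box at base -53 and the other match at base -49. Its start site lies 838 bases inside the annotated gene, so other start sites of this gene are not covered. The Trim59 window is chr3:69044693-69044992 on the minus strand, with its match, read on the other strand, at base -220. Capitals mark the matches. The cAMP response element TGACGTCA, the forkhead site GTAAACA and the TATA box TATAAA were in 0 of the 8 windows, and in 1.79%, 3.65% and 13.6% of all windows. GC content ran from 46.3% in Sult1a1 to 76.7% in Trim59, around a median of 52.7% over all windows.
0610040J01Rik promoter window: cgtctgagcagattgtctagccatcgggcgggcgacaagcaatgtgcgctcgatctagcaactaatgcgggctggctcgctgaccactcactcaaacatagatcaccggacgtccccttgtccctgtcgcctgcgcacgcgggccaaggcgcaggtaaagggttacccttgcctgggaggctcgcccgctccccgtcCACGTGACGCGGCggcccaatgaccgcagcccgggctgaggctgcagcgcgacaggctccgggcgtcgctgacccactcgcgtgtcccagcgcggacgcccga
Trim59 promoter window: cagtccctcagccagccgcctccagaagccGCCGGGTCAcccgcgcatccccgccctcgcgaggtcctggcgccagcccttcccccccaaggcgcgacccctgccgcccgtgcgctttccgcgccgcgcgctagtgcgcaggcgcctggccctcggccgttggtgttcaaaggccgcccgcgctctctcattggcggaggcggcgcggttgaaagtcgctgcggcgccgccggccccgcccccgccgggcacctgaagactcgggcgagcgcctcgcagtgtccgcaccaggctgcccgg

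**Figure D2:**
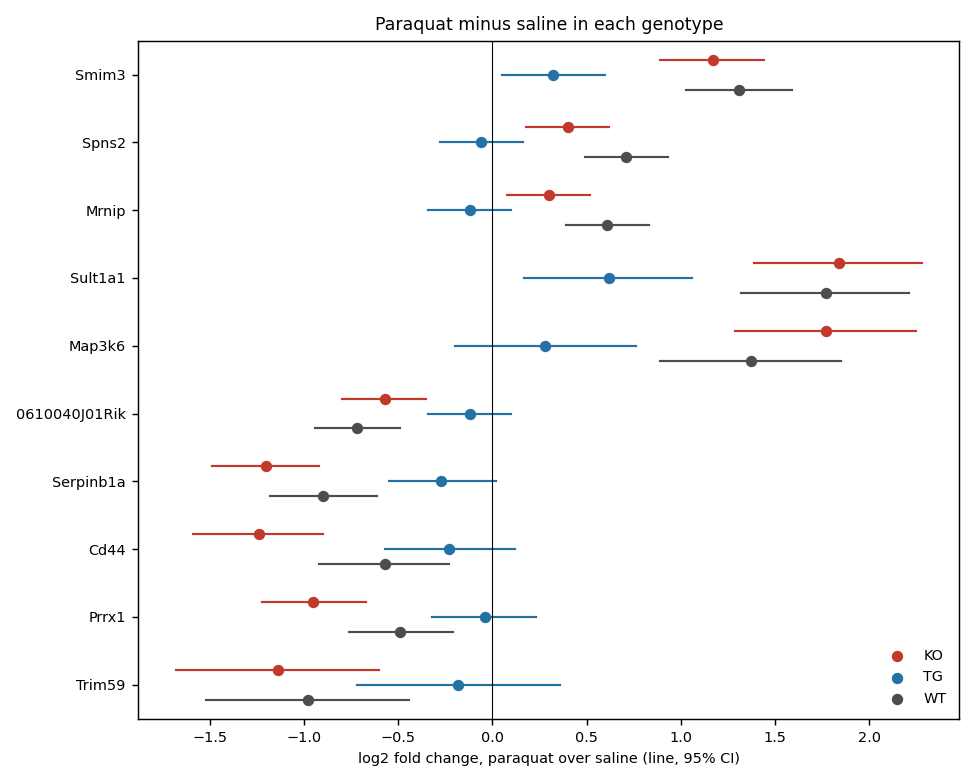
Log2 fold change of paraquat over saline (horizontal axis) for each gene in KO, TG and WT; points are estimates from 3 against 3 arrays and lines their 95% confidence intervals. The TG estimates lie closer to 0 than those of KO and WT for all 10 genes, from -0.27 for Serpinb1a to 0.62 for Sult1a1.

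The TG difference was a fraction of the WT difference for every gene, from -20.1% for Mrnip to 40% for Cd44, with a median of 19.4%. The TG values behind these shares were small and moved with single arrays and settings, over 27 alternatives from -0.36 to 0 for Cd44, -0.29 to 0.04 for Trim59, -0.15 to 0.05 for Prrx1 and -0.42 to -0.16 for Serpinb1a. They ran from 0.3 to 0.93 for Sult1a1, 0.09 to 0.62 for Map3k6, 0.25 to 0.45 for Smim3, -0.21 to -0.06 for 0610040J01Rik, -0.15 to -0.01 for Spns2 and -0.2 to -0.02 for Mrnip. The Trim59 value changed sign without the first TG saline array. That of Prrx1 did so without that array, without the first TG paraquat array and with the mean over probe sets, and that of Cd44 was 0 with array weights. The share was 34.8% for Sult1a1, 29.8% for Serpinb1a, 24.6% for Smim3, 20.8% for Map3k6, 18.1% for Trim59, 16.9% for 0610040J01Rik, 9.05% for Prrx1 and -8.36% for Spns2. Set by array number, paraquat minus saline pointed in the WT direction for all 10 genes in each KO and each WT pair. In KO and WT the paraquat and saline arrays overlapped for none of the 10 genes. Any pairing there gives this count, so nothing is read from it. Among the TG pairs paraquat minus saline pointed in the WT direction for 10 genes in the first and for 6 in each other pair. The first TG pair is also the pair with the high dap control. Its part in these counts was not tested. The genes and the contrast were chosen together, so these shares are a description.

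Averages of each genotype over paraquat and saline were compared next. With equal groups the sampling error of such an average is uncorrelated with that of the paraquat difference within a genotype, but a gene that responds in one genotype and not in another still shifts its average. Values within each treatment are therefore given for most of the differences from WT named below. A difference that lay wholly or mostly on the paraquat arrays restates the response the genes were picked for and is given with no p-value. Between KO and WT limma called 0 of the 10 genes, where 0.18% of all genes were called, 0.0361% higher and 0.144% lower (15 of 8320); at an unadjusted p under 0.05 there were 764 genes, 2 of the members among them. Their log2 differences ran from -0.23 for Spns2 (SE 0.07) to 0.05 for Trim59 (SE 0.18, limma adjusted p = 0.93), with Mrnip at -0.18 (SE 0.07). The Spns2 difference was -0.38 after paraquat and -0.07 after saline (SE 0.11 each). That of Mrnip was -0.33 and -0.03 (SE 0.10 each). Both thus lay mostly on the paraquat arrays and restate the smaller KO response. Spns2 was called in 1 of 26 alternative settings and Mrnip in 0, and nothing is read from this. TG was called against WT in 5 of the 10 genes (4 lower, 1 higher) and against KO in 3 (1 lower, 2 higher), counts that include such genes and from which nothing is read. Of all genes 31.4% were called against WT (20.6% lower, 10.8% higher) and 30.4% against KO (14.6% lower, 15.9% higher), beside 50% and 30% of the 10 genes. The comparisons with WT and with KO share the TG arrays.

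Sult1a1, the sulfotransferase, was lower in TG than in WT by a log2 of -0.92 (SE 0.15) and lower than in KO by -0.93 (SE 0.15). It was called by limma under all 26 alternative settings in both comparisons. The difference from WT was -1.5 after paraquat (SE 0.21) and -0.34 after saline (SE 0.21). Most of it was therefore on the paraquat arrays, so the calls are no independent support for the response and no p-value is given. Under saline the 3 TG values overlapped those of WT. Markers of choroid plexus, the tissue that makes cerebrospinal fluid, also differed between TG and WT. All 7 tested markers were called lower by limma in TG than in WT, beside 20.6% of all genes. They had a median of -1.30, led by Kl at -1.46 and Kcne2 at -1.43. Their mean level on single arrays ran from 6.82 to 7.88 in TG after paraquat and 6.11 to 7.29 in TG after saline, against 8.17 to 8.26 in WT after paraquat and 8.26 to 8.49 in WT after saline. These markers thus lay further below WT under saline than after paraquat, whereas the Sult1a1 difference was larger after paraquat. Of 9 markers of meninges and fibroblasts, 5 were called lower by limma in TG than in WT, led by Ogn at -0.84. The median over the 9 was -0.29. In bulk tissue fewer cells of a type and less RNA per cell cannot be told apart, and the part of these markers in the Sult1a1 difference was not tested.

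The other calls between TG and WT were smaller and depended on single arrays and on the processing. Map3k6 stood at -0.46 (SE 0.16), Mrnip at -0.22 (SE 0.07), Spns2 at -0.21 (SE 0.07) and 0610040J01Rik at 0.22 (SE 0.08). Map3k6 had passed the filter through KO and WT paraquat arrays alone, and with no filter it was not called. After paraquat these genes differed by -1.0, -0.59, -0.59 and 0.52, against 0.08, 0.15, 0.17 and -0.08 after saline. The TG differences of all 4 were thus on the paraquat arrays, with the opposite sign under saline. The Map3k6 call was lost without any of 7 arrays, which were the third TG paraquat, the first TG saline, the first and the third WT paraquat and all 3 WT saline arrays, and its value was -0.29 without the third TG paraquat array and -0.22 with array weights, where it was not called. That of Spns2 was lost without any of 8, the second and the third of TG paraquat, TG saline and WT paraquat and the first and the third of WT saline. That of Mrnip was lost without any of 7, the second TG paraquat, the first and the second TG saline, the first and the third WT paraquat and the second and the third WT saline arrays. That of 0610040J01Rik was lost without any of 6, the third TG paraquat, the third TG saline, the second and the third WT paraquat and the first and the second WT saline arrays. The Spns2 call was also lost with quantile scaling and that of 0610040J01Rik with median scaling.

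Against KO, 0610040J01Rik was at 0.23 in TG (SE 0.08) and Cd44 at 0.32 (SE 0.12), again on the paraquat arrays alone. The Cd44 call was lost without any of 13 of the 18 arrays. It was kept without the first TG paraquat, the second TG saline, the first or the third KO paraquat or the third WT paraquat array. That of 0610040J01Rik was lost without any of 5, the third TG paraquat, the third TG saline, the first KO paraquat and the second and the third KO saline arrays. The Cd44 call was lost too with no filter, quantile or median scaling, the mean over probe sets, single probe sets and the TG and KO arrays alone, and that of 0610040J01Rik with median scaling and with the TG and KO arrays alone. Map3k6 stood at -0.43 (SE 0.16). Smim3, Serpinb1a, Prrx1 and Trim59 were not called between TG and either other genotype, with log2 differences from WT of -0.22, -0.09, -0.20 and 0.25 (SE 0.09, 0.10, 0.09 and 0.18). For Smim3 the TG difference from WT was -0.72 after paraquat and 0.27 after saline, which cancel in the average. For Serpinb1a they were 0.22 and -0.41, and for Prrx1 0.02 and -0.42.

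**Figure D3:**
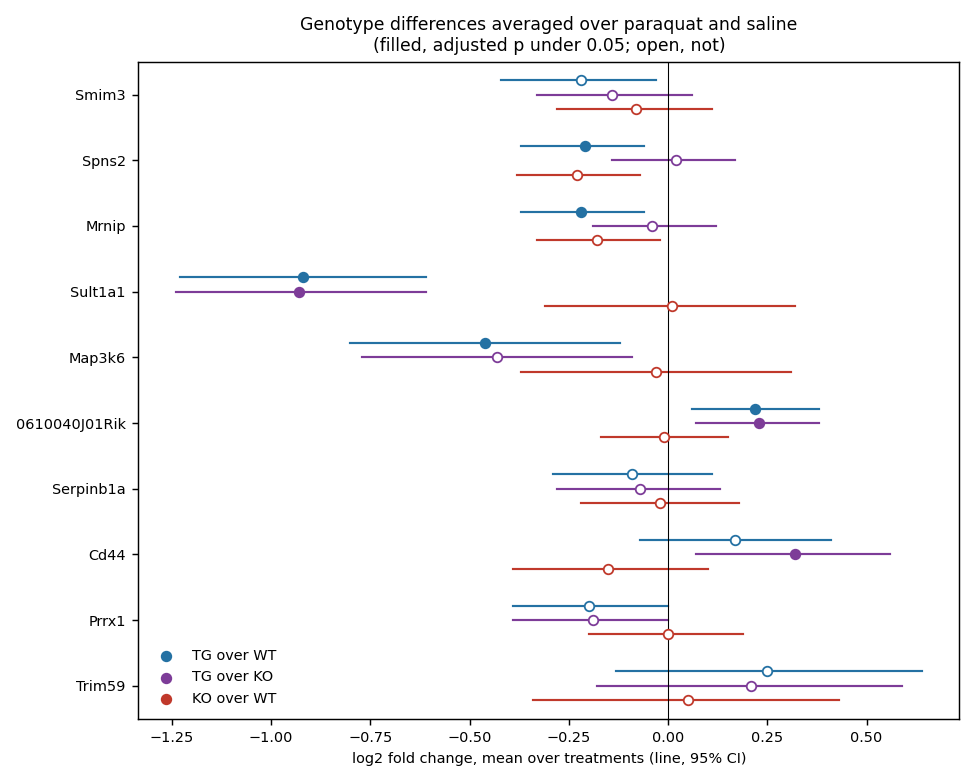
Log2 fold change between genotypes averaged over paraquat and saline (horizontal axis) for TG over WT, TG over KO and KO over WT; points are estimates, filled where the limma adjusted p was under 0.05, and lines are 95% confidence intervals. The filled points other than those of Sult1a1 rest on the paraquat arrays alone, and those of Sult1a1 mostly do. Sult1a1 stands apart at -0.92 and -0.93 in both TG comparisons, and its KO over WT estimate is 0.01.

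Serpinb1a, Cd44 and Prrx1 had further probe sets, all 5 of them dim, at or above the 40th percentile on 0 of 18 arrays. The paraquat differences in KO, TG and WT were -0.37, -0.20 and -0.48 for the second Serpinb1a probe set (SE 0.11) and -0.22, -0.16 and -0.19 for the second Cd44 probe set (SE 0.17). The 3 other Prrx1 probe sets gave -0.24, -0.04 and 0.09 in KO, -0.06, 0.10 and 0.06 in TG, and -0.41, -0.51 and -0.13 in WT. The signs in KO and WT therefore matched the brighter probe set for Serpinb1a and Cd44, and for Prrx1 in all but 1 of 3 KO estimates. In KO and WT the sizes were smaller except for 1 Prrx1 probe set in WT, while in TG the brighter Prrx1 probe set was itself at -0.04, closer to 0 than the dim ones. Probe sets this dim carry little information on size.

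**Figure D4:**
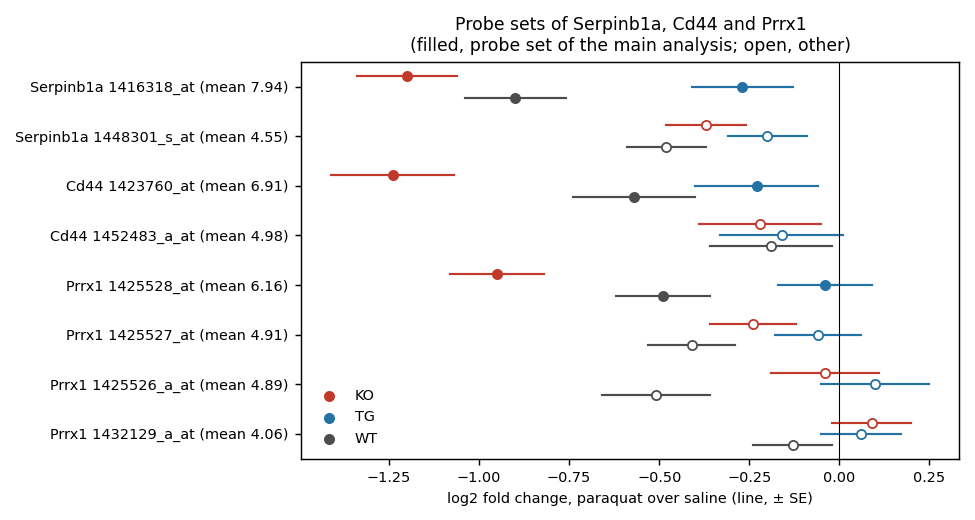
Log2 fold change of paraquat over saline (horizontal axis) for each probe set of Serpinb1a, Cd44 and Prrx1 in KO, TG and WT, with each probe set's mean log2 value beside its name; filled points are the probe set used for the gene, open points the others, and lines ± SE. The dim probe sets, with means of 4.06 to 4.98, lie nearer to 0 than the bright ones in KO.

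For each gene the 2 nearest of the other genes tested were named by the smallest root mean square difference between values centred on the gene's own mean over the 18 arrays. Nearest to Smim3 were Tsc22d3, which encodes the glucocorticoid-induced leucine zipper protein, and the triglyceride lipase gene Pnpla2, at 0.18 log2 units each against a spread of 0.54 for Smim3 itself. Nearest to Sult1a1 was Angptl4, an inhibitor of lipoprotein lipase, at 0.25, followed by Txnip at 0.32. Map3k6 lay nearest to Lrg1 at 0.24 and to Txnip, the thioredoxin-interacting protein gene, at 0.27. Spns2 was nearest to the kinase gene Mast3 at 0.10 and to Adssl1 at 0.11, and Mrnip to the mitochondrial thymidine kinase gene Tk2 at 0.10 and to Ifitm10 at 0.11. Among the genes that stood lower, Trim59 lay closest to the neural stem cell and glial factor gene Sox2, at 0.13 against its own spread of 0.55. The next was Cdh11 at 0.25. Cd44 was nearest to the carbonic anhydrase gene Car2 at 0.18 and to Cx3cr1, the fractalkine receptor of microglia, at 0.20. Serpinb1a was nearest to Cx3cr1 and the endothelial receptor gene Tek at 0.22 each. Prrx1 was nearest to the fatty acid elongase gene Elovl6 at 0.13 and the phosphatase gene Dusp1 at 0.16, and 0610040J01Rik to Sox21 and Grk5 at 0.15 each. In KO, TG and WT the paraquat differences of Sox2 were -1.07, -0.35 and -0.89, those of Angptl4 1.62, 0.40 and 1.78, and those of Tsc22d3 1.12, 0.30 and 1.13. All points share the 18 arrays, and the likeness is a description.

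Genes listed around the members by function, family or name were seldom called under paraquat. The counts were 1 of 97 in KO and 1 of 97 in WT, beside the 2.26% and 2% given above. The TRIM and small membrane protein lists group genes by family or name, so they do not cover partners of Trim59 and Smim3. Of the 97 tested genes in 9 lists built around the members, with the members left out, Txnip, which binds thioredoxin and is listed with the Ask kinases, was the only other gene called under paraquat, 1 of 18 in its list. It rose by 1.29 in KO (SE 0.17, limma adjusted p = 0.00016) and by 1.41 in WT (SE 0.17, limma adjusted p = 5e-05). At an unadjusted p under 0.05 limma gave 28 of the 97 in KO, 2 in TG and 8 in WT, which is 28.9%, 2.06% and 8.25%, beside 17.8%, 1.42% and 9.96% of all genes. After adjustment, 0 of 15 genes of sphingosine-1-phosphate and ceramide handling were called in KO, TG or WT. The same held for 0 of 6 sulfotransferases and sulfate donor enzymes, 0 of 10 genes of the MRN complex and ATM response, 0 of 3 serpins and their proteases, and 0 of 10 genes of hyaluronan turnover and binding. It held too for 0 of 6 mesenchymal transcription factors, 0 of 22 TRIM ligases and 0 of 7 small integral membrane proteins. List medians ran from -0.25 for mesenchymal factors to -0.02 for small membrane proteins in KO, beside -0.09 over all genes, and from -0.14 to 0.13 in WT, beside 0.02.

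Between TG and WT, averaged over treatments, the same lists did hold called genes, against 31.4% of all genes. Of the 15 sphingolipid genes 2 were higher and 3 lower, among them the sphingosine kinase gene Sphk2 at 0.36 and the receptor gene S1pr1 at 0.44, with the ceramidase gene Asah2 at -0.79. Of the 6 sulfation genes the brain sulfotransferase gene Sult4a1 was higher at 0.45 and Sult5a1 lower at -0.22. Of the 18 genes around the Ask kinases 1 was higher and 6 lower, led by Txnip at -0.74 and Mapk12 at -0.50. After paraquat Txnip rose by 1.41 in WT but by 0.24 in TG. Part of its averaged difference thus restates the smaller TG response. Of the 10 genes of the DNA break response 1 was higher and 3 lower, with Nbn, a subunit of the MRN complex, at -0.48 and the kinase gene Atm at -0.36. Of the 10 hyaluronan genes 4 were higher and 1 lower, with neurocan (Ncan) at 0.40 and versican (Vcan) at -0.37. The TRIM list held 5 higher and 6 lower of 22, the serpin list 2 lower of 3, the mesenchymal list 2 lower of 6, which were Zeb2 at -0.59 and Zeb1 at -0.33, and the list of small membrane proteins 0 of 7. Medians lay between -0.30 for the serpin list and 0.12 for the hyaluronan list, beside -0.03 over all genes.

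Markers of endothelium moved in the same direction as the genes that stood lower, and those of pericytes and smooth muscle did not, with 0 of 7 called by limma and medians of -0.02 in KO, -0.03 in TG and -0.04 in WT (2, 0 and 0 at an unadjusted p under 0.05). Of 7 tested endothelial markers, 4 fell in KO after paraquat by the same limma call, with Tek at -0.91, Flt1 at -0.66, Cldn5 at -0.62 and Slco1c1 at -0.57, and 3 fell in WT, with Tek at -0.83, Cldn5 at -0.67 and Slco1c1 at -0.64. In TG 0 were called by limma, and 0 had an unadjusted p under 0.05. The list median was -0.57 in KO, -0.15 in TG and -0.33 in WT, and the mean level of the 7 markers was 7.32 to 7.65 on KO paraquat arrays and 7.87 to 8.02 on KO saline arrays. In WT it was 7.52 to 7.57 after paraquat and 7.87 to 8.0 after saline. Of 9 microglial markers Cx3cr1 alone was called, at -0.91 in KO and -0.75 in WT, and of 11 markers of astrocytes and Bergmann glia Sox9 alone, at -0.56 and -0.45. Of 9 oligodendrocyte and myelin markers Aspa was called in KO, at -0.78, and Sox10 in WT, at -0.62. Of the 7 choroid plexus markers 0 were called by limma after paraquat, with medians of -0.26 in KO, 0.78 in TG and -0.02 in WT. At an unadjusted p under 0.05 limma gave 2, 5 and 1 of them, beside 17.8%, 1.42% and 9.96% of all genes. In TG most of these markers thus stood higher after paraquat before adjustment. Of 9 markers of meninges and fibroblasts 0 were called by limma after paraquat in any genotype, with 2 at an unadjusted p under 0.05 in KO, 0 in TG and 1 in WT. The part of vessel, glial and choroid plexus markers in the values of Spns2, Cd44, Serpinb1a, Prrx1 and Trim59 was not tested.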

How the data were processed

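The deposited values are log2 expression values, 1 per probe set and array, made by the authors with RMA, per the submitters' processing notes, which give no version. That they are log2 was read from their range, no centring by gene was seen, and which arrays were normalised together is not given in the sources used here. Scanner files and scan batches were not used here. Of 22690 probe sets 64 were controls, 20380 carried 1 gene symbol in the platform annotation, 691 several and 1555 none, and only those with 1 symbol were used. For each of the 12393 genes the brightest probe set on average was taken, and 8320 genes reached the 40th percentile of an array on at least 3 arrays.

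All 18 arrays were fitted together on 6 group means with the lmFit and eBayes functions of limma 3.58.1 (R 4.3.3), which left 12 residual degrees of freedom. The fit was tested on simulated data. P-values are two-sided and Benjamini-Hochberg adjusted over 8320 genes. The median half-width of a 95% confidence interval was 0.27 between 2 groups, set by the number of arrays, and 3 against 3 arrays cannot give an exact permutation p below 0.1. The members, the lists and the tests were chosen with earlier results of these data known. Named genes are the 10 members, their 2 nearest genes, up to 4 called genes of each list and comparison, Apod and the controls. Replicate numbers were checked for pairing by correlating deviations from the group means. Same-numbered TG paraquat and saline arrays correlated at 0.16, 0.13 and 0.42, against at most 0.14, 0.16 and -0.22 with other numbers. WT pairs gave 0.09, 0.15 and 0.34, against at most 0.04, 0.1 and -0.2. KO pairs gave -0.09, -0.28 and -0.12, against at most 0.19, 0.15 and 0.3. The same number was thus the best match for every WT pair, for the first and the third TG pair and for no KO pair. This does not settle whether arrays were paired, and the main fit used no pairing. Promoter windows came from RefSeq. Alternatives covered the filter, quantile or median scaling, array weights, the replicate block, the arrays fitted, the probe sets and each array left out.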

Additional observations from a re-analysis of the deposited data

Results flagged for a closer look

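Mrnip was singled out because its paraquat arrays lay on opposite sides of the saline mean in different genotypes. Every TG paraquat array lay below the TG saline mean, while every KO and every WT paraquat array lay above the saline mean of its genotype. The TG side depended on the third TG saline array, which read 6.92. Without that array the TG paraquat difference shrank from -0.12 to -0.02. The paraquat difference of TG minus that of WT was -0.73 (SE 0.15), and that of TG minus that of KO was -0.43 (SE 0.15). These differences were not tested, since the gene was chosen for its paraquat response, and in TG the paraquat and saline arrays overlapped. Set by array number, the first TG pair stood at 0.07, in the direction of WT, and the second and the third at -0.15 and -0.28.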

How the results depend on the processing

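Under all alternatives the paraquat differences of the 10 genes in KO and WT kept their direction. In TG those of Trim59 and Prrx1 did not, and that of Cd44 was 0 with array weights. With the mean over all probe sets those of Serpinb1a, Cd44 and Prrx1 shrank to -0.79, -0.73 and -0.28 in KO and to -0.69, -0.38 and -0.38 in WT. The number of members called under paraquat in KO, TG and WT was 8, 0 and 8 with the replicate block. It was 0 in TG when the TG arrays were fitted alone with the replicate block, a setting chosen after seeing the data. It ran from 7 to 9 in KO, 0 to 0 in TG and 7 to 10 in WT with 1 array left out.

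Between KO and WT, array weights called 1 member and 438 genes, the replicate block 25 genes, the KO and WT arrays alone 76 and the mean over probe sets 2, and 1 array left out gave 0 to 0 members and 7 to 49 genes. Between TG and WT, array weights called 5136 genes and single probe sets 4164, and 1 array left out gave 1 member (without the third WT paraquat array) to 7 members (without the second KO paraquat array) and 2029 to 3695 genes. Between TG and KO, array weights called 5 members and 5320 genes, the TG and KO arrays alone 1 member and single probe sets 3852 genes, and 1 array left out gave 1 to 4 members and 1971 to 3384 genes. The replicate block changed no call of a member in these comparisons. Smim3 passed the threshold between TG and WT with quantile scaling, median scaling and the TG and WT arrays alone. So did Serpinb1a and Prrx1 with array weights, in both TG comparisons, and Cd44 with the mean over probe sets. Between TG and KO, Map3k6 passed it with quantile and median scaling and Prrx1 with median scaling. The cause of these shifts was not tested.

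Differences near 0 changed sign. Between KO and WT, Serpinb1a was at 0.02 with quantile scaling and with array weights and at 0 with median scaling. Median scaling put 0610040J01Rik and Prrx1 at 0.01 each. Array weights put Smim3 and Prrx1 at 0.05 each, and the mean over probe sets put Cd44 at 0.03 and Prrx1 at 0.02. Between TG and KO, Spns2 was at -0.01 with quantile scaling, -0.02 with median scaling and -0.07 with array weights, and Trim59 at -0.05 with array weights. With the mean over probe sets Prrx1 was at 0.04 between TG and WT and 0.02 between TG and KO. With 1 array left out, the KO and WT differences ran from -0.05 to 0.07 for Sult1a1, -0.13 to 0.06 for Map3k6, -0.05 to 0.03 for 0610040J01Rik, -0.05 to 0.04 for Serpinb1a, -0.06 to 0.07 for Prrx1 and -0.10 to 0.26 for Trim59. Those between TG and KO ran from -0.02 to 0.05 for Spns2 and -0.01 to 0.36 for Trim59. The dim probe sets of Serpinb1a, Cd44 and Prrx1 limit what their averages show.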
